A study of Homo sapiens with 8 samples.

Results

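Of the G4 ChIP-seq peaks of K562 and HepG2 cells, 848 of 17981 were intergenic and far from transcription start sites (TSSs). A peak was counted here when its centre lay outside every annotated transcript and more than 5 kb from any annotated TSS of GENCODE version 44, on hg19, with mitochondrial intervals left out. By this rule 333 of the 9205 high-confidence peaks of K562 and 515 of the 8776 of HepG2 were intergenic, and these peaks are called members here. K562 is a chronic myelogenous leukemia line with erythroid features, and HepG2 is a hepatocellular carcinoma line with hepatocyte features. The labels name no treatment, and each group is 1 established line, so a difference between them is a difference between 2 cultures. G4 ChIP-seq recovers fixed, fragmented chromatin with BG4, an antibody against folded G4s, and the labels give 3 precipitated libraries and 1 input for each line. The deposited lists hold only the position of each interval: those of at least 5 of 8 replicates in K562 and at least 6 of 9 in HepG2 are the high-confidence peaks, and those of at least 2 are the lower-confidence intervals. The authors describe 3 independent experiments per line with 2 to 3 technical replicates each, so the 8 and 9 replicates are not all independent.

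No peak height, read count or replicate comes with an interval, so sequencing depth is unknown, no spread between replicates could be computed, and the tests below compare lists of peaks. Intervals of 95% on shares (Wilson) cover the counting of peaks only. Peaks in 1 cluster are not independent of each other.

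A G-quadruplex (G4) forms where 4 runs of guanine on 1 DNA strand fold together and pair in stacked planes. Many G4s mapped in human chromatin sit in nucleosome-depleted, GC-rich promoters, where the same letters are read by general promoter factors. Open chromatin far from promoters is often enhancer sequence, which is used in a cell-type manner and is bound by factors of that cell type, such as GATA1 and GATA2 in erythroid cells and the forkhead factors FOXA1, FOXA2 and FOXA3 in liver cells.

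The sequences below, read from GRCh37 on the plus strand, show the range among the intergenic peaks, and the gene beside each is the nearest protein-coding gene. The first 2 are peaks of at most 300 bp among those with the most G4 motifs in their line, with each motif in capitals. The term G4 motif stands for 4 stretches of 3 or more G joined by loops that are 1 to 7 bases long and may themselves hold G, and a motif appears as runs of C where it lies on the minus strand.
K562 chr1:181074362-181074652, near IER5: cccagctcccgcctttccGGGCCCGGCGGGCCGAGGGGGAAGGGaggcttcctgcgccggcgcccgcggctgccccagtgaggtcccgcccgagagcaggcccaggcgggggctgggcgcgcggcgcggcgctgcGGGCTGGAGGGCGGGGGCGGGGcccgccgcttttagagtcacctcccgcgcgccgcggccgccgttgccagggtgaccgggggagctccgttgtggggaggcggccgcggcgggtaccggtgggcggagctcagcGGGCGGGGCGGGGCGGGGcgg
HepG2 chr17:73305237-73305526, near GRB2: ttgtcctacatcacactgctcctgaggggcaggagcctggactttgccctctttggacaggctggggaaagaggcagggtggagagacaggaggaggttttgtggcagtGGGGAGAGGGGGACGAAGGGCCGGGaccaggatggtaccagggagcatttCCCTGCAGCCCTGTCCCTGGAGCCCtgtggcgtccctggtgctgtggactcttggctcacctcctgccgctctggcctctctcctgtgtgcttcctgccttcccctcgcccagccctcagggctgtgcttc

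The next peaks are those farthest from any TSS in each line, and neither holds a G4 motif.
K562 chr2:71975463-71975535, beyond the 3′ end of DYSF: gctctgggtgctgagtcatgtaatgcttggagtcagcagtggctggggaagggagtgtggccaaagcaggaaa
HepG2 chr9:32136879-32136941, on the 5′ side of ACO1: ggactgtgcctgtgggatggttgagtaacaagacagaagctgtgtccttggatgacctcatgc

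The last set consists of peaks seen in only 1 line, with short letter strings in capitals that erythroid GATA factors (AGATAAG or its reverse complement) and the forkhead factors (TGTTTAC or its reverse complement) are known to read. The first of each line is near a gene of that lineage, and the others are among the widest such peaks of at most 200 bp, chosen after their values were seen.
K562 chr3:195835282-195835431, near TFRC: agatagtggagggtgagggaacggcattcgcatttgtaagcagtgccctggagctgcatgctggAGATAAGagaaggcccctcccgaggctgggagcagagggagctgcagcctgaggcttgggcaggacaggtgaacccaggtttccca
K562 chr1:181122140-181122321, near IER5: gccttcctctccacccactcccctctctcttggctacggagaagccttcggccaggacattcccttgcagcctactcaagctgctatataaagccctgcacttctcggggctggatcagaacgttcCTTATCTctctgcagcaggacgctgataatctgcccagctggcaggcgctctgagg
K562 chr17:75830702-75830882, 123993 bp on the 5′ side of TNRC6C: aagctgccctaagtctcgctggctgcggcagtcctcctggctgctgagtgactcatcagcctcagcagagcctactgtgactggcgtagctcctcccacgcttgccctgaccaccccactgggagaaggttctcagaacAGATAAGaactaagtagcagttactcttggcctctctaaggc
HepG2 chr1:214223997-214224136, near PROX1: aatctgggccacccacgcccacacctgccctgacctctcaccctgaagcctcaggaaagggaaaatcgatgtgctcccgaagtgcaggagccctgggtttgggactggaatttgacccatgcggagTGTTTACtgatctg
HepG2 chr7:139929439-139929621, near KDM7A: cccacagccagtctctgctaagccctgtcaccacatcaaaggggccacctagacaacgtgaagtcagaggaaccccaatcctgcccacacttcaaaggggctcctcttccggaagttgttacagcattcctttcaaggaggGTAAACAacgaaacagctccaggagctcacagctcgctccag

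Intergenic peaks took a larger share of the HepG2 list than of the K562 list. They made up 3.62% (3.26 to 4.02) of K562 peaks and 5.87% (5.40 to 6.38) of HepG2 peaks, an odds ratio of 0.602 (0.523 to 0.693, adjusted exact p = 3.79e-12). All tests between 2 sets of peaks here are two-sided Fisher's exact tests with Benjamini-Hochberg adjustment. Sequence open to such a peak makes up 32.0% of the assembled genome, 916 of 2859 Mb. Such sequence, and windows of it, are called open here for their position alone, whatever their chromatin state, and accessibility was not measured. For comparison, promoter peaks, with a centre within 1 kb of a TSS, numbered 7849 in K562 and 6464 in HepG2, and intronic peaks more than 5 kb from a TSS numbered 321 and 714. The lower-confidence lists held 1271 intergenic intervals in K562 and 2612 in HepG2. When only transcripts of protein-coding genes were considered, the high-confidence counts rose to 877 and 1124, so many peaks outside coding genes lay in or near noncoding transcripts.

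The intervals were short. Median width was 154 bp in K562 (3 to 553) and 135 bp in HepG2 (2 to 575), against 202 and 180 bp at promoters. The widest K562 members were chr1:181998750-181999302 near ZNF648 (553 bp), chr10:74080504-74080984 near DNAJB12 (481 bp) and chr2:70369531-70370002 near C2orf42 (472 bp). The widest HepG2 members were chr4:3838434-3839008 near ADRA2C (575 bp), chr10:81095322-81095875 near PPIF (554 bp) and chr1:16126664-16127144 near UQCRHL (481 bp). Very short intervals are stretches on which enough replicates agreed, and each member lay in a lower-confidence interval of its own line with a median width of 287 bp in K562 and 314 bp in HepG2. Intervals under 50 bp made up 24 of the 333 members in K562 and 62 of the 515 in HepG2. Joining intervals within 100 bp left 323 and 484 members.

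Although intergenic, the peaks lay near genes. The median distance of the centre to the nearest TSS was 12096 bp in K562 and 14137 bp in HepG2. In K562 129 of 333 members (38.7%) lay 5 to 10 kb from a TSS, 115 lay 10 to 20 kb away, 72 lay 20 to 50 kb away and 17 lay beyond. In HepG2 the same 4 bins held 159, 192, 133 and 31 of 515. Of the sequence open to such a peak, 33.7% is more than 50 kb from a TSS, whereas 5.11% (3.21 to 8.02) of K562 and 6.02% (4.27 to 8.42) of HepG2 members were. The difference between the lines did not pass the test (odds ratio 0.840, 0.457 to 1.54, adjusted exact p = 0.714), and the interval leaves room for differences in either direction. At the edge of the rule, the nearest member was 5067 bp from the TSS of NFATC2IP in K562. The nearest peaks outside transcripts that were left out were 5000 bp from CLEC11A and 4948 bp from HTR6.

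**Figure D1:**
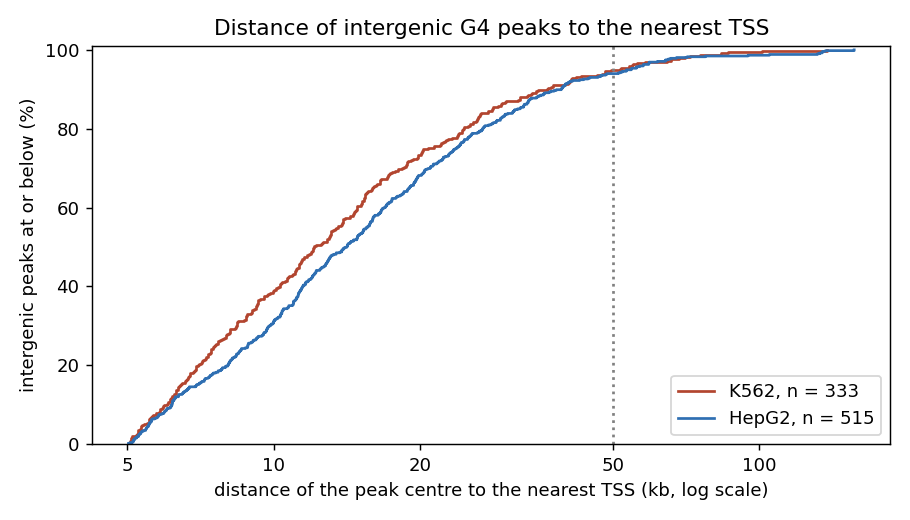
Cumulative share of intergenic G4 peaks (%) against the distance of the peak centre to the nearest annotated TSS (kb, log scale), for 333 K562 and 515 HepG2 peaks, with a dotted line at 50 kb. The K562 curve lies above that of HepG2 over most of the range, with medians of 12096 and 14137 bp, and both have passed 90% before the dotted line.

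The farthest peaks were found near few genes. In K562 they were chr2:71975463-71975535, 137590 bp from a TSS of DYSF, a muscle membrane-repair gene, chr2:72110183-72110285, 101330 bp from a pseudogene, and chr7:101372917-101372953, 86249 bp upstream of CUX1, which encodes a homeodomain factor. The farthest HepG2 members were chr9:32136879-32136941, 156646 bp from the TSS of an rRNA pseudogene, and 2 of the 3 peaks between OLIG3 and IFNGR1 on chromosome 6, chr6:137678775-137678968 at 136659 bp and chr6:137675346-137675387 at 134781 bp. Beyond 50 kb, 5 of 17 K562 and 3 of 31 HepG2 members held a G4 motif, against 20.7% and 10.3% of all members of these lines.

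The nearest TSS was that of a protein-coding gene for 168 K562 members (50.5%) and 223 HepG2 members (43.3%), of a long noncoding RNA for 75 and 144, and of a pseudogene for 61 and 85. The nearest protein-coding gene lay within 100 kb of 315 K562 (94.6%) and 471 HepG2 (91.5%) members. Members lay about as often on its 5′ side (151 in K562, 247 in HepG2) as on its 3′ side (182 and 268). Within 1 Mb of an assembly gap, such as a telomere or centromere, were 23.1% of K562 and 20.8% of HepG2 members, while 11.7% of the open sequence is that close. No member held 2 copies of TTAGGG or of GGAAT in a row, the repeats of telomeres and of some satellites. Of the members of at least 50 bp, 8 of 309 in K562 and 21 of 453 in HepG2 shared a stretch of 50 bases with another place in the genome, and in only 1, K562 chr1:142890942-142891144, were at least 50% of such stretches copied.

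Members were less often found in the other line than promoter peaks were. Of the K562 members 71 (21.3%, 17.3 to 26) overlapped a HepG2 high-confidence peak by at least 1 bp, where 51.1% of all K562 peaks did. Promoter peaks reached 56.4% (odds ratio 0.210, 0.161 to 0.273, adjusted exact p = 1.76e-36), and intronic peaks 15.6% (odds ratio 1.47, 0.985 to 2.19, adjusted exact p = 0.109). Of the HepG2 members 74 (14.4%, 11.6 to 17.7) overlapped a K562 peak, against 53.9% of all HepG2 peaks, 68.8% of promoter peaks (odds ratio 0.0762, 0.0592 to 0.0980, adjusted exact p = 2.05e-132) and 7% of intronic peaks (odds ratio 2.23, 1.53 to 3.25, adjusted exact p = 7e-05). Intergenic peaks of HepG2 were thus shared more often than its intronic peaks, and in K562 the same contrast did not pass the test. This is no difference between the lines, since the K562 odds ratio over that of HepG2 was 0.659 (0.380 to 1.14). Overlapping intronic peaks numbered 50 in both lines, of 321 in K562 and 714 in HepG2, so these odds ratios depend on the class sizes. The shared part of the members was higher in K562 than in HepG2 (odds ratio 1.61, 1.13 to 2.31, adjusted exact p = 0.0211). However, the shorter list has the larger share by construction, since much the same overlaps are counted over fewer members. That call was lost among intervals of at least 100 bp (odds ratio 1.34, adjusted exact p = 0.257) and without chromosome 20 (1.46, adjusted exact p = 0.0994).

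**Figure D2:**
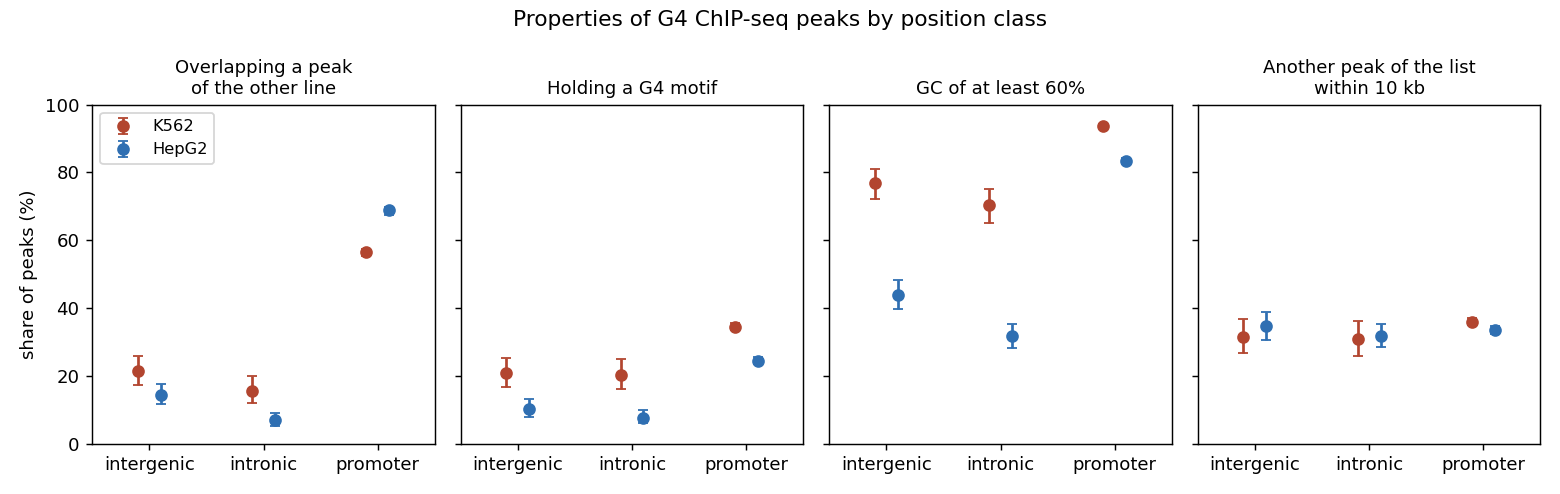
Share of peaks (%) that overlap a peak of the other line, hold a G4 motif, have a GC content of at least 60%, or have another peak of the list within 10 kb, for intergenic, intronic and promoter peaks of K562 (red) and HepG2 (blue). Points are shares and bars are 95% Wilson intervals, and intergenic peaks lie far below promoter peaks in the first 3 panels and near them in the last.

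All overlaps were between members of both lines. The 848 members formed 774 separate loci, 71 of them with members of both lines, and the overlapping pairs numbered 74, with a median of 134 bp in common (3 to 366). The K562 interval was the wider one in 45 pairs and the HepG2 interval in 28. A G4 motif lay in both intervals of 20 pairs and in neither of 47. The pair with the longest common stretch lay between LINC00899 and WNT7B, at chr22:46431590-46432016 in K562 and chr22:46431627-46431992 in HepG2. The widest shared members were those near ZNF648 and C2orf42 and chr7:75795830-75796268 near SRRM3 in K562, and chr16:30825508-30825949 near BCL7C, chr16:89313759-89314135 near ZNF778 and the peak near WNT7B in HepG2.

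Shared and line-only members differed in sequence. A member was called line-only when it overlapped neither a high-confidence nor a lower-confidence interval of the other line, which held for 183 K562 members (55.0%) and 383 HepG2 members (74.4%), against 24.4% of all K562 and 32.9% of all HepG2 peaks. Another 79 K562 and 58 HepG2 members overlapped a lower-confidence interval only. Median GC was 68.3% among shared members of either line, but 62.4% among line-only members of K562 and 56.1% among those of HepG2. The shared members of both lines lay at the same 71 loci. Their near-equal GC thus follows from the overlap, and the contrasts below are not independent between the lines. A G4 motif was found in 24 of 71 shared K562 members (33.8%) and in 32 of 183 line-only ones (17.5%, odds ratio 2.41, 1.29 to 4.49, adjusted exact p = 0.00908). In HepG2 it was found in 21 of 74 (28.4%) and 27 of 383 (7.05%, odds ratio 5.22, 2.76 to 9.90, adjusted exact p = 3.5e-06). Surroundings rich in CpG, taken as 500 bp around the centre with GC of at least 50% and an observed to expected CpG ratio of at least 0.6, were found for 37 of 71 shared K562 members against 37 of 183 line-only ones (odds ratio 4.29, 2.38 to 7.74, adjusted exact p = 3.5e-06). In HepG2 they were found for 40 of 74 against 16 of 383 (odds ratio 27.0, 13.7 to 53.2, adjusted exact p = 2.63e-23). Shared members were also wider. Their median width in K562 was 188 bp (line-only: 149 bp), and in HepG2 164 bp (line-only: 131 bp), and a wider interval has more room for an overlap and for a motif.

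The members were richer in GC than the intergenic sequence that the position rule allows. Median GC was 65.2% in K562 members (46.2 to 100) and 58.5% in HepG2 members (25 to 100), and the medians of windows of the members' median width tiled over all open intergenic sequence were 39.0% and 38.5%. In K562 256 members (76.9%, 72.1 to 81.1) had a GC of at least 60%, against 90.9% of all K562 peaks, 93.7% of promoter peaks (odds ratio 0.222, 0.169 to 0.291, adjusted exact p = 2.03e-21) and 70.4% of intronic peaks (odds ratio 1.40, 0.985 to 1.98, adjusted exact p = 0.106). In HepG2 226 members (43.9%, 39.7 to 48.2) did, against 71.9% of all HepG2 peaks, 83.4% of promoter peaks (odds ratio 0.156, 0.130 to 0.188, adjusted exact p = 1.04e-81) and 31.7% of intronic peaks (odds ratio 1.69, 1.34 to 2.1, adjusted exact p = 3.75e-05). Of the open windows, 1.66% and 2.08% reached that level. The lines differed more in this measure than in any other of the 4 sequence, sharing and neighbour measures tested between them (odds ratio 4.25, 3.12 to 5.79, adjusted exact p = 3e-21). With the limit at 50% GC the contrast of HepG2 members with intronic peaks no longer passed the test (odds ratio 1.04, adjusted exact p = 0.909), and beyond 50 kb from a TSS the direction turned without passing the test (0.435, adjusted exact p = 0.290).

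**Figure D3:**
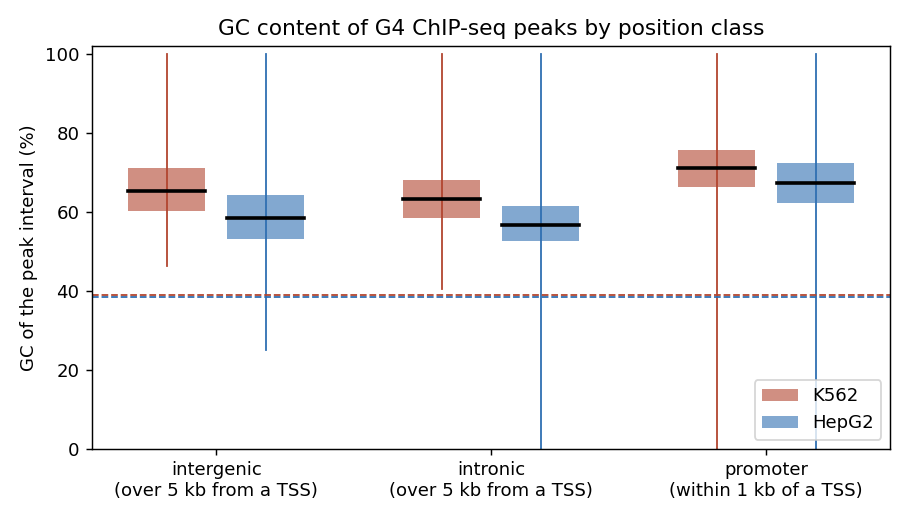
GC content of the peak interval (%) by position class for K562 (red) and HepG2 (blue). Boxes span the quartiles, black bars mark medians, and thin lines reach the lowest and highest values (intervals of a few bp reach 0 and 100). Dashed lines mark the median of windows of all intergenic sequence that the position rule allows, 39.0% and 38.5%, well below every box.

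CpG-rich surroundings were found for 106 K562 members (31.8%, 27.1 to 37.0) and 67 HepG2 members (13%, 10.4 to 16.2). Intronic peaks had fewer, 15.6% in K562 (odds ratio 2.53, 1.73 to 3.70, adjusted exact p = 3.5e-06) and 5.46% in HepG2 (odds ratio 2.59, 1.71 to 3.91, adjusted exact p = 9.85e-06), and promoter peaks far more, 89.4% (odds ratio 0.0555, 0.0436 to 0.0707) and 83.4% (0.0298, 0.0229 to 0.0389). Intergenic peaks thus stood between intronic and promoter peaks in both lines.

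Most intergenic peaks lacked a G4 motif lying wholly inside the interval. The authors report that most peaks of both lines overlap sequences that formed G4s in an in vitro assay. That is a different measure, taken over all peaks, and was not examined here. In K562 69 members (20.7%, 16.7 to 25.4) held one, against 32.6% of all K562 peaks, 34.4% of promoter peaks (odds ratio 0.498, 0.380 to 0.651, adjusted exact p = 2.39e-07) and 20.2% of intronic peaks (odds ratio 1.03, 0.704 to 1.51, adjusted exact p = 0.923). In HepG2 53 members (10.3%, 7.95 to 13.2) held one, against 20.6% of all HepG2 peaks, 24.4% of promoter peaks (odds ratio 0.355, 0.266 to 0.474, adjusted exact p = 1.8e-14) and 7.70% of intronic peaks (odds ratio 1.37, 0.925 to 2.04, adjusted exact p = 0.173). Open windows of the same width held it in 1.22% and 1.06% of cases. K562 members held it more often than HepG2 members (odds ratio 2.28, 1.54 to 3.36, adjusted exact p = 7.01e-05), and among intervals of 100 to 200 bp, a range chosen after the data were seen, the difference no longer passed the test (2.04, adjusted exact p = 0.0640). The motif lay on the plus strand only in 26 K562 and 19 HepG2 members, on the minus strand only in 39 and 32, and on both in 4 and 2. Several motifs were found in 19 K562 and 6 HepG2 members. The most in HepG2 was 3, at chr19:524085-524511 near TPGS1, all on the minus strand. With runs of only 2 G allowed, 280 K562 members (84.1%) and 326 HepG2 members (63.3%) held a motif, which leaves 53 and 189 with none.

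The share of members with a motif rose with GC content. Among K562 members with a GC of at least 70% it was found in 44 of 98 (44.9%, 35.4 to 54.8), and in windows of that GC in 35.0%. From 60% to 70% GC it was found in 24 of 158 members (15.2%, 10.4 to 21.6) and in 13.5% of windows, and from 50% to 60% in 1 of 73 members (1.37%, 0.242 to 7.36) and 3.41% of windows. In HepG2 the same 3 bands gave 19 of 52 members (36.5%, 24.8 to 50.1) against 31.9% of windows, 23 of 174 (13.2%, 8.97 to 19.1) against 10.6%, and 11 of 219 (5.02%, 2.83 to 8.77) against 3.21%. Apart from K562 peaks of at least 70% GC, whose interval lay just above the value of the windows, the windows' shares fell within the members' intervals in every band. Members vary in width within a band while the windows do not, and no test was made.

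**Figure D4:**
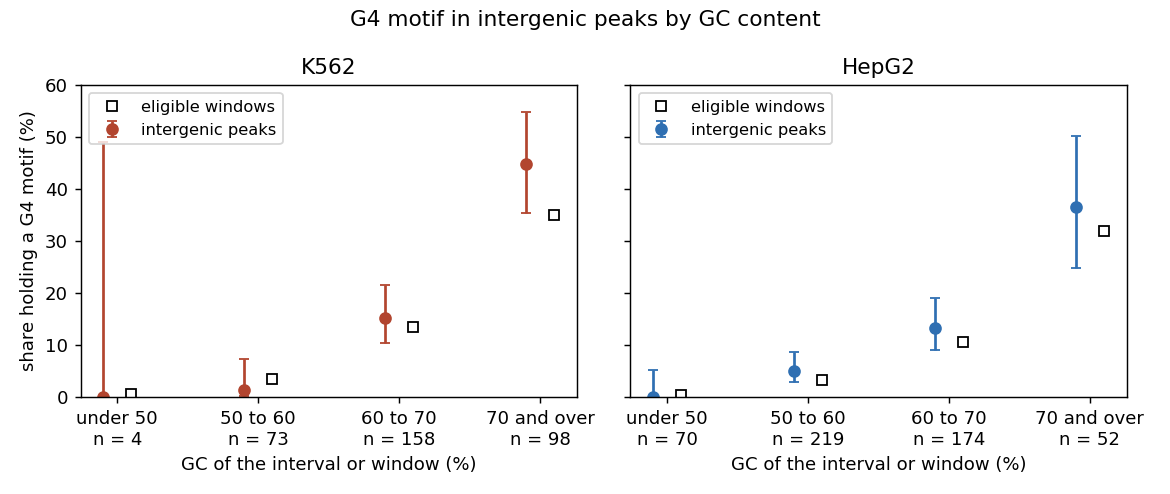
Share of intergenic peaks (%) that hold a G4 motif by GC content of the interval in K562 (left) and HepG2 (right). Open squares give the share of windows of the same GC over all intergenic sequence that the position rule allows. Filled points carry 95% Wilson intervals and the number of peaks stands under each band; both kinds rise together with GC, to 44.9% and 36.5% of peaks at 70% GC and over.

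Among short letter strings read by known factors, GATA letters were more frequent in K562 members and forkhead letters in HepG2 members. AGATAAG or its reverse complement lay in 25 K562 members (7.51%, 5.14 to 10.8) and 12 HepG2 members (2.33%, 1.34 to 4.03), an odds ratio of 3.40 (1.68 to 6.87, adjusted exact p = 0.000793). TGTTTAC or its reverse complement lay in 5 K562 members (1.5%, 0.643 to 3.47) and 37 HepG2 members (7.18%, 5.26 to 9.75), an odds ratio of 0.197 (0.0766 to 0.506, adjusted exact p = 0.00024). Open windows of the members' median width held the GATA letters in 2.30% and 2.00% of cases and the forkhead letters in 2.46% and 2.1%, at a GC far below that of the peaks. At promoter peaks the GATA letters were found in 1.10% of K562 and 0.774% of HepG2 peaks, and the forkhead letters in 1.07% and 1.52%. Members held GATA letters more often than promoter peaks in K562 (odds ratio 7.33, 4.63 to 11.6, adjusted exact p = 6.46e-12) and also in HepG2 (odds ratio 3.06, 1.62 to 5.78, adjusted exact p = 0.00242). They held forkhead letters more often than promoter peaks in HepG2 (odds ratio 5.03, 3.41 to 7.42, adjusted exact p = 4.8e-12), while the contrast in K562 did not pass the test (odds ratio 1.41, 0.568 to 3.50, adjusted exact p = 0.462). Members were narrower than promoter peaks in both lines. They were also lower in GC, with medians of 65.2% against 71.1% in K562 and 58.5% against 67.4% in HepG2. Both letter strings are mostly A and T, and the part of GC in these contrasts with promoter peaks was not tested. The same division between the lines was found among intronic peaks, with GATA letters in 34 of 321 K562 and 22 of 714 HepG2 peaks (odds ratio 3.73, 2.1 to 6.48, adjusted exact p = 9.11e-06) and forkhead letters in 7 and 47 (odds ratio 0.316, 0.141 to 0.708, adjusted exact p = 0.00325). Among members of 100 to 200 bp the differences kept their direction but did not pass the test, with GATA letters in 12 of 157 against 8 of 221 (odds ratio 2.20, 0.879 to 5.52, adjusted exact p = 0.126) and forkhead letters in 3 against 12 (odds ratio 0.339, 0.0941 to 1.22, adjusted exact p = 0.128). A match of letters is a description of the sequence and does not show that a factor was bound.

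**Figure D5:**
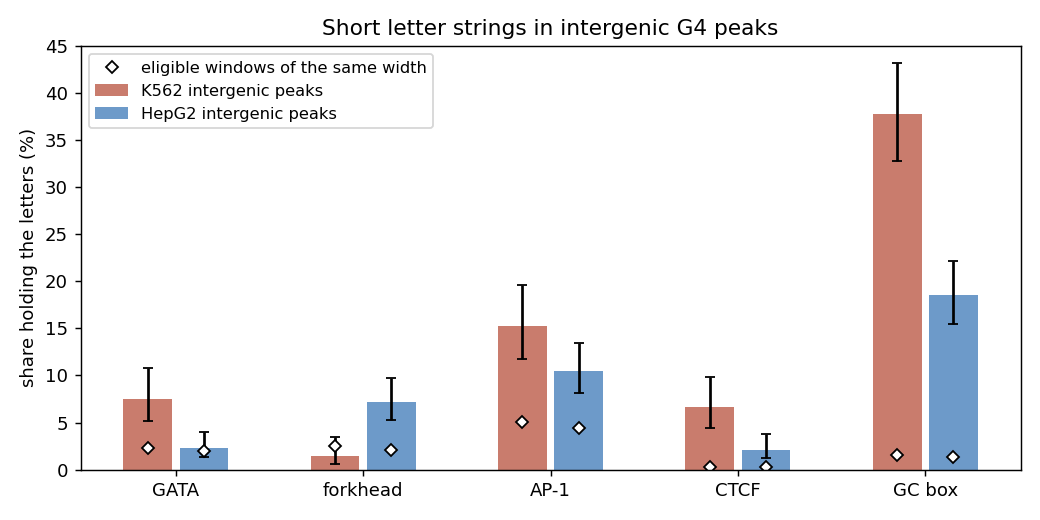
Share of intergenic peaks (%) holding the letters of 5 known factors or elements in K562 (red, n = 333) and HepG2 (blue, n = 515), with 95% Wilson intervals. Open diamonds give windows of the same median width over all intergenic sequence that the position rule allows. GATA, CTCF and GC box letters stand higher in K562 and forkhead letters in HepG2. For the AP-1, CTCF and GC box letters both lines lie above the windows.

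Of the members with these letters, 22 of 25 with GATA letters in K562 and 33 of 37 with forkhead letters in HepG2 were line-only. Of all members, 55% in K562 and 74.4% in HepG2 were line-only, and the difference from these shares was not tested. GATA letters lay in 22 of 183 line-only K562 members (12%) and in 9 of 383 line-only HepG2 members (2.35%, odds ratio 5.68, 2.56 to 12.6, adjusted exact p = 2.05e-05). Forkhead letters lay in 0 of 183 line-only K562 members, which allows a share of up to 1.64% by a limit of 3 counts and 2.06% by the Wilson interval, and in 33 of 383 line-only HepG2 members (8.62%, adjusted exact p = 6.87e-06). Among shared members each string lay in 2 or 4: GATA letters in 2 of 71 and 2 of 74, forkhead letters in 4 of each. Shared members lie at the same loci in both lists, and leaving them out takes nearly equal counts from both sides. The line-only tests reuse members already counted in the contrasts of all members, so they are no separate evidence. The 22 line-only K562 members with GATA letters came from 12 chromosomes, had a median GC of 60.1% (46.5 to 71.1), and held a G4 motif in 2 cases. Of all line-only K562 members 17.5% held one. The nearest coding gene was in the list of erythroid and blood genes for 1 of the 22, the peak near TFRC shown above, and in the list of liver genes for 0. The 33 line-only HepG2 members with forkhead letters came from 17 chromosomes, had a median GC of 53.8% (37.7 to 67.4), and held a G4 motif in 2 cases. Of all line-only HepG2 members 7.05% held one. The nearest coding gene was in the list of liver genes for 2 of the 33, CEBPA and PROX1, both factors of liver cells, and in that of erythroid and blood genes for 1, BCL2L1.

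Among the other letter strings, those of the GC box and CTCF also differed between the lines, and both were more frequent in K562. The GC box, GGGCGG, read by SP and KLF factors, lay in 126 K562 (37.8%) and 96 HepG2 members (18.6%, odds ratio 2.66, 1.94 to 3.63, adjusted exact p = 3.6e-09), against 74.8% and 63.2% of promoter peaks, 34.3% and 12.6% of intronic peaks and 1.51% and 1.33% of windows. These letters hold a run of 3 G and can be part of a G4 motif. The core letters CAGGGGGC of the insulator factor CTCF, which hold a run of G as well, lay in 22 (6.61%) and 11 members (2.1%, odds ratio 3.24, 1.55 to 6.78, adjusted exact p = 0.00242). Promoter peaks held them in 7.33% and 5.49% of cases, intronic peaks in 6.23% and 2.1%, and windows in 0.316% and 0.274%. The AP-1 letters TGANTCA lay in 51 (15.3%) and 54 members (10.5%, odds ratio 1.54, 1.02 to 2.33, adjusted exact p = 0.0540), where promoter peaks had 3.35% and 3.26% and windows 5.02% and 4.39%. Intronic peaks held them in 18.1% and 11.5% of cases, so these letters were not particular to intergenic peaks. The ETS letters CCGGAAG (4.50% and 4.27%), the CCAAT box (14.4% and 14.8%) and the NRF1 letters GCGCATGCG (3 and 4 members) showed no difference that passed the test, with adjusted exact p from 0.932 to 1. The NRF1 test rests on too few members to decide, with an odds ratio interval of 0.258 to 5.22. The CCAAT box was rarer in members than in promoter peaks (33.1% and 38.5%) and windows (23.5% and 20.9%), and intronic peaks had 13.4% and 15.3%. ETS letters lay in 15% and 13.8% of promoter peaks, 3.74% and 1.68% of intronic peaks and 0.269% and 0.235% of windows. None of these comparisons with promoter peaks, intronic peaks or windows was tested. All strings were looked for on both strands. The measured GC content of the members differs between the lines, and its part in these differences was not tested.

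The share of intergenic peaks with a neighbour was near that of all peaks in HepG2 and somewhat lower in K562, a difference that was not tested. Another peak of the same list lay within 10 kb of 105 K562 members (31.5%, 26.8 to 36.7), against 37.2% of all K562 peaks, and of 178 HepG2 members (34.6%, 30.6 to 38.8), against 35.6% of all HepG2 peaks. No contrast with intronic or promoter peaks passed the test, with odds ratios of 1.03 (0.742 to 1.44) and 0.818 (0.646 to 1.03) in K562 and 1.13 (0.885 to 1.43) and 1.05 (0.867 to 1.27) in HepG2. The difference between the lines did not pass it either (odds ratio 0.872, 0.650 to 1.17, adjusted exact p = 0.454). With neighbours counted only up to 5 kb, K562 members had one less often than promoter peaks (odds ratio 0.595, adjusted exact p = 0.000241). With neighbours counted up to 50 kb, members of both lines had one more often than promoter peaks (1.62 in K562, adjusted exact p = 0.000192, and 1.65 in HepG2), so the direction in K562 depends on the distance. The neighbour was itself a member for 71 of the 105 K562 and 142 of the 178 HepG2 members.

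Linked at 10 kb, the K562 members formed 262 single peaks, 26 pairs and 6 larger clusters, and the HepG2 members 373 single peaks, 51 pairs and 12 larger clusters. The largest K562 cluster held 4 members on chromosome 19, from 2056466 to 2061757, on the 5′ side of MKNK2, a kinase of the translation factor eIF4E. Its members were 56, 219, 133 and 420 bp wide, and 2 of them were shared with HepG2. The largest HepG2 cluster held 5 members on chromosome 4, from 1768417 to 1787133, between TACC3, a mitotic spindle gene, and FGFR3, a growth factor receptor. Its members were 121, 38, 91, 106 and 165 bp wide with a GC of 60.4% to 71.1%, and 1 of them was shared with K562 and held a G4 motif. That member and the widest member of the K562 cluster carried these motifs.
K562 chr19:2061563-2061588, plus strand: GGGctcagaGGGcgaGGGaggcGGGG
HepG2 chr4:1786989-1787010, plus strand: GGGagcaGGGaGGGGagctGGG
The other K562 clusters of 3 lay near LAPTM5, a lysosomal protein of blood cells, EEFSEC, FOXL2, ACTB and PPP1R35. None of their members was shared with HepG2, where 21.3% of all K562 members were. In 1 of these clusters, near FOXL2, 3 intervals of 95, 4 and 87 bp spanned only 529 bp, and the first 2 of them lay in a lower-confidence interval of 163 bp.

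On chromosomes, HepG2 members were most numerous on chromosome 20, with 49 of 515 (9.51%), where K562 had 7 of 333 (2.1%, odds ratio of HepG2 against K562 4.90, 2.19 to 10.9, adjusted exact p = 0.000184 over 24 chromosomes). Of all HepG2 peaks 4.98% lay on chromosome 20, and of all K562 peaks 2.55%. On chromosome 14 lay 4.85% of HepG2 and 1.2% of K562 members (adjusted exact p = 0.0189), against 3.86% and 1.94% of all peaks. K562 members were more frequent on chromosome 1, with 14.7% against 7.57% (adjusted exact p = 0.0140), where all peaks had 12.1% and 9.25%. The same held on chromosome 19, with 10.5% against 5.05% (adjusted exact p = 0.0189, all peaks 11.4% and 8.88%), and on chromosome 7, with 10.2% against 4.85% (adjusted exact p = 0.0189, all peaks 6.09% and 4.43%). On these 5 chromosomes the whole lists leaned the same way as the members, and the difference between members and whole lists was not tested. Relative to its open sequence, chromosome 19 was the densest in both lines, with 36.8 K562 and 27.3 HepG2 members per 10 Mb. In K562 the next was chromosome 22 with 25.8. In HepG2 the order was close to a tie, with 27.2 on chromosome 22, 25.4 on chromosome 20 and 24.2 on chromosome 17. Neither line had a member on chromosome Y, and on chromosome X K562 had 3 and HepG2 0. Peaks on a chromosome can be clustered, and copy number was not measured here.

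Few members lay nearest to genes of the lineage lists. The lists held 84 liver genes, 65 erythroid and blood genes and 105 developmental transcription factors, which are 0.417%, 0.323% and 0.521% of 20136 protein-coding genes, and no test was made. A liver gene was nearest to 8 of 515 HepG2 members (1.55%) and 1 of 333 K562 members (0.300%). The HepG2 members lay near the liver transcription factor genes PROX1, CEBPA, FOXA3, FOXA2 (2 members) and HNF4A, near APOB, which encodes the protein of low-density lipoprotein, and near the growth factor gene IGF2, which was also the K562 gene. Distances to the gene were 196 bp for FOXA3, 1517 bp for HNF4A, 9214 bp for PROX1, 12467 bp for APOB, 23738 bp for CEBPA and 31320 bp for IGF2, and 46795 and 90004 bp for FOXA2. All 8 were line-only, where 74.4% of all HepG2 members were. Their GC ranged from 47.6% near APOB to 67.4% near CEBPA. Only the IGF2 peak, chr11:2118853-2119190, held a G4 motif, and 10.3% of all HepG2 members held one. With 8 members, neither count sets these peaks apart from the other members. The K562 peak near IGF2, chr11:2110840-2111005, was 39419 bp from the gene and overlapped a lower-confidence HepG2 interval.

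An erythroid or blood gene was nearest to 6 K562 members (1.80%) and 5 HepG2 members (0.971%). In K562 these lay near TFRC, the transferrin receptor (2 members, 26333 and 45644 bp from the gene), GATA2, a factor of blood stem and progenitor cells (55728 bp), CBFA2T3, a corepressor (27142 bp), STAT5A, a cytokine signal transducer (448 bp), and BCL2L1, an inhibitor of apoptosis (2627 bp). The TFRC, GATA2 and CBFA2T3 peaks were line-only, while the BCL2L1 peak was shared. Of all K562 members 55.0% were line-only and 21.3% were shared. In HepG2 the 5 members lay near BCL2L1 (2) and PIM1, a kinase (3). Of those near PIM1, chr6:37070363-37070540 and chr6:37070549-37070564 lay side by side in a lower-confidence interval of 323 bp, so the members are not all separate places. None of the 6 K562 members of this list held a G4 motif, where 20.7% of all K562 members held one. The peaks near liver genes in HepG2 and near blood genes in K562 were named after their values were seen. Developmental factors were nearest to 4 K562 members, 3 at FOXL2 and 1 at TBX2, and to 5 HepG2 members, 2 each at TBX3 and TBX2 and 1 at FOXQ1. The TBX2 peak was found in both lines, at chr17:59494314-59494417 in K562 and chr17:59494251-59494416 in HepG2, 7539 and 7507 bp beyond the gene. The other HepG2 member at TBX2, chr17:59494440-59494462, lay beside it in the same lower-confidence interval of 264 bp.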

How the data were processed

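G4 ChIP-seq lists of K562 and HepG2 were used. As deposited, a file holds positions in bp and nothing else. To make it, the authors used cutadapt 1.16 for trimming, BWA 0.7.15 for alignment to hg19, Picard 2.14.0 and samtools 1.6 for removing duplicates, MACS2 2.1.1 for peaks of single replicates and bedtools 2.26.0 for merging, so narrow intervals are stretches common to several replicates. The lists do not say which libraries support an interval.

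Centres were placed on GRCh37 with GENCODE version 44 lifted to that build. Sequence measures were read from the interval, CpG from 500 bp around the centre. Every window of the members' median width in open intergenic sequence was scanned as background, without regard to chromatin state. Shares have 95% Wilson intervals. Peak sets were compared by two-sided Fisher's exact tests with odds ratios and Benjamini-Hochberg adjustment (22 contrasts, and 28 added after the data were seen). A chromosome test covered 24 chromosomes. Differences between lines in an odds ratio have normal 95% intervals on the log scale, unadjusted.

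The members, gene lists and tests were chosen with earlier results of these data known. The regions named were, per line, the 3 widest, the 3 farthest from a TSS, the largest cluster, the 3 with most motifs, the 3 widest shared, those at the 5 kb edge and, up to 5, those next to listed genes, and others are said to be named later. Functions were tested on simulated data. Repeat content was not analysed here, because the reference is not masked, and the share of 50-base stretches found elsewhere in the genome was used in its place. Python 3.11.15, numpy 2.4.6, scipy 1.17.1, pandas 2.3.3, numba 0.67.0 and matplotlib 3.10.9 were used. Some named regions and sequences are not reported here.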

Additional observations from a re-analysis of the deposited data

Results flagged for a closer look

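In 2 contrasts the lines differed in how far intergenic peaks stood from promoter peaks. For sharing with the other line, the odds ratio of intergenic against promoter peaks was 0.210 in K562 and 0.0762 in HepG2, so that the K562 value was 2.75 times that of HepG2 (1.91 to 3.97). The overlapping peaks were nearly as many in both lines (71 and 74 intergenic, 4426 and 4446 at promoters), so this ratio is set mainly by the sizes of the classes, 333 and 515 intergenic and 7849 and 6464 promoter peaks, and is no measure of sharing apart from them. For a GC of at least 60% the odds ratio was 0.222 in K562 and 0.156 in HepG2, and the K562 value was 1.42 times that of HepG2 (1.02 to 1.97). The other 6 such ratios had intervals that held 1, and the intervals were not adjusted for the number of ratios.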

How the results depend on the processing

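Counts of intergenic peaks (333 in K562, 515 in HepG2) depended on the rule. They were 539 and 788 at a TSS distance of 1 kb, 204 in K562 at 10 kb, 17 and 31 at 50 kb, 877 and 1124 with only transcripts of protein-coding genes, 1271 and 2612 in the lower-confidence lists, 343 in HepG2 for intervals of at least 100 bp, and 157 and 221 for intervals of 100 to 200 bp. The values below are odds ratios, or the K562 odds ratio over that of HepG2 where called a ratio of lines, and the cause of a change was not tested.

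At 1 kb, the HepG2 neighbour contrast with promoters (1.36) and the ratios of lines for sharing against introns (0.678) and motif against promoters (1.44) passed the threshold, and that for GC against promoters (1.30) no longer did. At 10 kb the K562 neighbour contrast with promoters (0.546) and the ratios of lines for motif (1.80) and neighbours (0.6) against promoters passed, and that for GC (1.45) did not. At 50 kb, with few peaks left, calls were lost for HepG2 sharing against introns (9), motif against promoters (0.793 in K562, 0.331 in HepG2), K562 GC against promoters (0.217), K562 against HepG2 for sharing (1.45), motif (3.89) and share of the list (0.522), and the ratios of lines for sharing (2.46) and GC (3.12) against promoters. HepG2 GC against introns turned to 0.435, and the neighbour values passed for K562 against promoters (0.0507), K562 against HepG2 (0.0509) and the ratio of lines (0.0465).

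With only protein-coding transcripts these passed: sharing (2.18) and GC (2.06) against introns in K562, motif against introns in HepG2 (1.72), K562 against HepG2 beyond 50 kb (0.711), and the ratios of lines for sharing against introns (0.565) and motif against promoters (1.42). In the lower-confidence lists, sharing (1.47), motif (1.27) and GC (1.57) against introns in K562 passed, as did motif (1.37) and neighbours (1.13) against introns in HepG2, K562 neighbours against promoters (0.759) and K562 against HepG2 for neighbours (0.672). HepG2 neighbours against promoters turned to 0.780.

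The ratio of lines for GC against promoters was the least stable: its interval held 1 in the lower-confidence lists (1.02), for intervals of at least 100 bp (1.45), with intervals within 100 bp merged (1.34), with 1 peak per cluster (1.30), without peaks near gaps (1.40), with the limit at 50% GC (2.40) and for intervals of 100 to 200 bp (1.56). K562 against HepG2 for sharing lost its call for intervals of at least 100 bp (1.34), of 100 to 200 bp (1.40) and without chromosome 20 (1.46), and the motif contrast of the lines for 100 to 200 bp (2.04). K562 sharing against introns passed when the other line's lower-confidence list was used (1.92) and without peaks near gaps (1.73). With runs of 2 G, HepG2 motif against introns (1.33) and the ratio of lines against promoters (1.79) passed, as they did with loops of 1 to 12 (1.47 and 1.43), and that ratio passed for 200 bp around the centre (1.56). At 50% GC the calls of K562 against promoters (0.273) and HepG2 against introns (1.04) were lost, and at 70% K562 against introns passed (2.06). Neighbours within 5 kb gave 0.595 for K562 against promoters and 0.650 for the ratio of lines, and neighbours of the same class 0.543 and 0.591. Within 50 kb K562 against promoters turned to 1.62, and HepG2 passed against introns (1.31) and promoters (1.65).

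The restrictions to 100 to 200 bp, to 200 bp around the centre, to neighbours of the same class and to all chromosomes but 20 were added after the data were seen. The alternatives for repeat content were not run. No paired analysis was possible because the lists merge all replicates, and no replicate was left out for the same reason. The depth behind an interval is unknown.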
